A study of Mus musculus with 23 samples.

Results

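Bile acid synthesis and its feedback control were followed through 10 genes of mouse liver: Cyp7a1, Cyp8b1, Cyp27a1, Cyp7b1, Akr1d1, Hsd3b7, Slc27a5 and Baat, which encode enzymes, and Nr1h4 and Nr0b2, which encode regulators. They were taken by name as rows of the deposited count table, and all 10 were found among its 49585 genes, each under 1 Ensembl identifier. Of the 10, 9 had a mean of at least 10 counts per library and were tested together with the other genes that met this minimum, 14466 in all. Hsd3b7 was listed at 0 in every library.

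The liver turns cholesterol into bile acids, and this is the main route by which cholesterol leaves the body. In the classic pathway Cyp7a1 takes the first and rate-limiting step and Cyp8b1 sets the share of cholic acid, whereas the alternative pathway runs through Cyp27a1 and Cyp7b1. Bile acids activate FXR, the nuclear receptor encoded by Nr1h4, which induces Nr0b2, and its product SHP represses Cyp7a1 and Cyp8b1. In the intestine FXR induces Fgf15, a hormone that reaches the liver and represses Cyp7a1 through the receptor Fgfr4 and its partner Klb.

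The study asked how maternal metabolic syndrome (MetS) before birth or during nursing bears on the liver of the young. Per the labels, all animals are C57Bl/6J pups of females that ate food with 10% fat (control, Ct) or 45% fat from the age of 3 weeks, for 7 or 17 weeks, and whose mates ate the control food. At birth litters were cut to 5 pups and given to a foster dam. Group names give the birth dam first and the foster dam second: Ct-Ct (n = 6) had no exposure, MetS-Ct (n = 6) exposure before birth, Ct-MetS (n = 6) exposure during nursing and MetS-MetS (n = 5) both. That MetS dams are those on the 45% fat food is taken from the study's layout, since the labels do not say it per pup. Livers were taken at postnatal day 21, and in MetS-Ct_97 at day 22. The labels do not give sex, litter or length of the diet per pup, and nothing in the labels says that the pups of a group came from separate litters, so that p-values measure the spread between these pups only. The control pups also changed dams at birth, so that fostering is shared by all 4 groups. The number behind a group name is the label's own animal number.

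Promoters of 3 members are shown because the results below turn on these genes: Nr0b2 is the member that passed, and Akr1d1 and Cyp8b1 varied in opposite directions between pups. Each sequence runs 5′ to 3′ along the gene's strand from 250 bases before to 50 bases after its start in RefSeq (build GRCm38.p6), at chr4:133553126-133553425 (plus strand) for Nr0b2, chr9:121916256-121916555 (minus strand) for Cyp8b1 and chr6:37529923-37530222 (plus strand) for Akr1d1. Capitals mark the motifs that were searched on both strands.
Nr0b2: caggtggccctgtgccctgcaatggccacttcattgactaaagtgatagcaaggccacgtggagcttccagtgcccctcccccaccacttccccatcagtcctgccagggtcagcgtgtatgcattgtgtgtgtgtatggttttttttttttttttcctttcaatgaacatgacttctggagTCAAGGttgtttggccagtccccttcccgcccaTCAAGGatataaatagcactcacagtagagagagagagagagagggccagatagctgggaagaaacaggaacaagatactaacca
Cyp8b1: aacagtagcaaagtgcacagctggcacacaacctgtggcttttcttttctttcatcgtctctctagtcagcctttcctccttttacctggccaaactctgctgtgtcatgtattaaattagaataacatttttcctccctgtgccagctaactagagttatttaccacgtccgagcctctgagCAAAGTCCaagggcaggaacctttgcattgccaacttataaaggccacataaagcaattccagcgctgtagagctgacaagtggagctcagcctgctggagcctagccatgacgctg
Akr1d1: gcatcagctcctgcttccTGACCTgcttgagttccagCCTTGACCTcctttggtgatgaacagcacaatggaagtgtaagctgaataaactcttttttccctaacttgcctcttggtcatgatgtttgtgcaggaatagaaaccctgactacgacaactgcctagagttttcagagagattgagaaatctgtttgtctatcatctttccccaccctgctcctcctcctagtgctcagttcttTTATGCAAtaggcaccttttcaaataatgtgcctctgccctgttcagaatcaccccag
The core bound by NR5A2-type receptors (TCAAGG), through which LRH-1 acts on bile acid genes, lies in the Nr0b2 window at 68 and 35 bases before the start, and on the opposite strand in that of Akr1d1. Among 32851 RefSeq promoter windows of this length 14.4% held this core. Cyp8b1 has an HNF4A-type motif (CAAAGTCC), held by 1.42% of the windows. Akr1d1 has 2 copies of the nuclear receptor half-site AGGTCA on the opposite strand, of which 1 overlaps its NR5A2-type core, and 16.3% of the windows held a half-site. Akr1d1 also has a D-box (TTATGNAA), the site of the clock output factors DBP, HLF and TEF, just before its start, and 3.38% of the windows held one. A match is a stretch of letters and was not tested for binding. RefSeq windows were at hand for 6 members. They were not at hand for Cyp7a1, Cyp7b1, Baat and Slc27a5. Of the other windows, that of Cyp27a1 held a D-box and that of Nr1h4 an AGGTCA half-site.

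Library totals ran from 16876460 to 34527932 counts, with the smallest in MetS-MetS_110. Levels are given as CPM, the usual scaled counts, with library sizes normalized by TMM. The livers carried the hepatocyte markers, whose 7 genes summed to 123105 to 160101 CPM in Ct-Ct and 150907 to 166789 in MetS-MetS, and 0 of the 7 passed by edgeR in MetS-MetS against Ct-Ct (1 had an unadjusted p under 0.05, and DESeq2 called 1). Markers of Kupffer cells, the liver's macrophages, rose there in 4 of 7 (summed 230.0 to 298 CPM in Ct-Ct, 285 to 493 in MetS-MetS) and erythroid markers in 2 of 6 (213 to 597 against 309 to 572 CPM). Of 5 cholangiocyte, 5 stellate cell, 5 endothelial and 5 lymphocyte markers tested, 0 passed by edgeR (unadjusted p under 0.05 in 1, 1, 3 and 0). DESeq2 called 1 of them, in endothelium. Of all tested genes 5.78% passed by edgeR in MetS-MetS against Ct-Ct, and 24.4% had an unadjusted p under 0.05. Of 4 pancreas markers 3 were at 0 throughout, and the 5 intestine markers summed to at most 44.4 CPM. In bulk tissue fewer cells of a type and less RNA per cell cannot be told apart.

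Across the 4 groups, 1 of the 9 tested members passed a Benjamini-Hochberg adjusted p under 0.05 in edgeR's test. This was in MetS-MetS against Ct-Ct, where 5.78% of all tested genes passed. The call was near the threshold and was lost in 12 of the 23 fits that left out 1 library. Nr0b2, the gene of the repressor SHP, was 2.36-fold lower in pups exposed both before birth and during nursing than in unexposed pups. Its level was 9.92 ± 4.53 (SD, n = 5) CPM in MetS-MetS and 23.6 ± 7.60 (n = 6) in Ct-Ct. Neither the receptor gene Nr1h4 nor any enzyme of the set passed in any comparison by edgeR. Cyp7a1 had the highest mean in MetS-MetS and the widest spread between pups of all members.

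**Figure D1:**
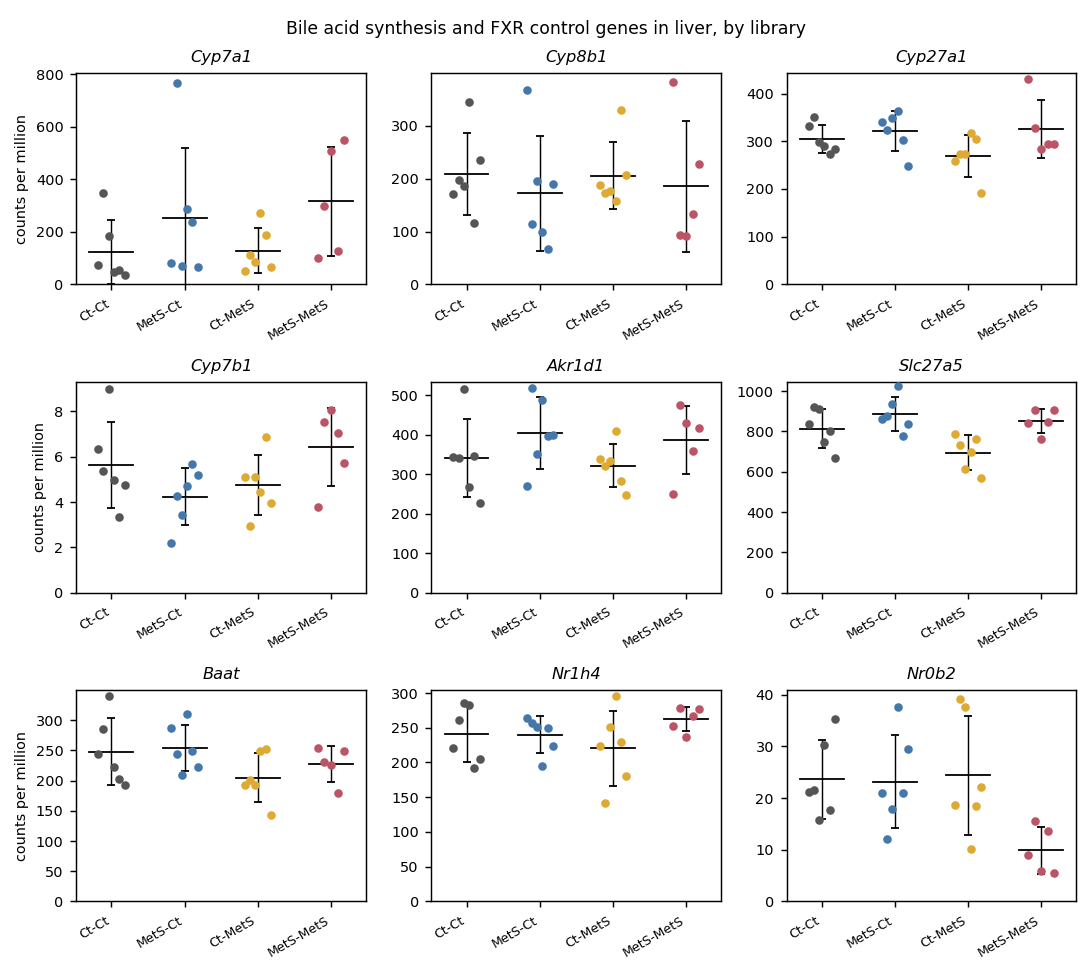
Level of each tested member in CPM by group; each point is 1 pup, horizontal lines are group means and bars are 1 SD (cut at 0 for Cyp7a1). For Nr0b2 the 5 MetS-MetS pups lie at 15.6 or lower, just under the lowest Ct-Ct pup at 15.7.

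The regulators come first. The Ct-Ct pups had 15.7 to 35.3 CPM of Nr0b2 (median 21.4), MetS-Ct pups 11.98 to 37.6 (median 21.1) and Ct-MetS pups 10.2 to 39.2 (median 20.4). The 5 MetS-MetS pups had 5.52, 5.94, 8.96, 13.5 and 15.6 CPM. All 5 were below the Ct-Ct mean and the ranges of the 2 groups did not overlap, though the margin was narrow. Of all tested genes 4.41% had ranges that did not overlap between MetS-MetS and Ct-Ct, and Nr0b2 was 1 of the 9 members. The log2 fold change was −1.24 ± 0.36 (SE) with an adjusted p of 0.0455. DESeq2 gave an adjusted p of 0.00635, limma-voom 0.0749, and edgeR without a filter on low counts 0.0873.

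The call was near the threshold and was kept when 11 of the 23 libraries were left out 1 at a time. It was lost without Ct-Ct_4, Ct-Ct_129 or Ct-Ct_139, without MetS-Ct_53, MetS-Ct_85 or MetS-Ct_120, without Ct-MetS_24 or Ct-MetS_169, and without MetS-MetS_39, MetS-MetS_110, MetS-MetS_154 or MetS-MetS_157. Over these fits the log2 fold change ran from −1.46 to −1.09 and the adjusted p reached 0.111.

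Against the single exposures the difference in Nr0b2 was of like size but did not pass. The log2 difference of MetS-MetS was −1.21 ± 0.36 from MetS-Ct (adjusted p = 0.146) and −1.29 ± 0.36 from Ct-MetS (adjusted p = 0.181). For each exposure alone the log2 difference of Nr0b2 from Ct-Ct was smaller than its SE, at −0.029 ± 0.33 in MetS-Ct and 0.049 ± 0.33 in Ct-MetS. The interaction, which asks whether both exposures together differ from the sum of each, was −1.26 ± 0.48 with an unadjusted p of 0.0161 and an adjusted p of 0.892. Single pups of both single exposures lay within the MetS-MetS range: Ct-MetS_65 had 10.2 CPM and MetS-Ct_70 had 11.98.

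Nr1h4, the gene of the receptor FXR itself, varied less than Nr0b2. Ct-Ct pups had 193 to 285 CPM, MetS-Ct pups 195 to 264, Ct-MetS pups 142 to 296 and MetS-MetS pups 237 to 279. The ranges overlapped widely, and its log2 difference between MetS-MetS and Ct-Ct was 0.12 ± 0.14 (adjusted p = 0.644).

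Cyp7a1, the gate of the classic pathway, differed more between pups of a group than between groups. It ran from 34.4 to 346 CPM in Ct-Ct (median 62.99), from 66.8 to 764 in MetS-Ct (median 160) and from 51.0 to 271 in Ct-MetS (median 97.2). The MetS-MetS pups had 98.9, 128.6, 297, 507 and 549 CPM. Means were 123 ± 122 (SD) CPM (Ct-Ct), 251.4 ± 269 (MetS-Ct), 128 ± 85.1 (Ct-MetS) and 316 ± 208 (MetS-MetS). Single pups carried part of these means, an alternative computed after the values were seen: MetS-Ct had 148.9 ± 105.9 CPM without MetS-Ct_70, and Ct-Ct had 78.3 ± 61.0 without Ct-Ct_10. Averaged over both foster dams, the log2 difference with exposure before birth was 1.17 ± 0.49 (unadjusted p = 0.0279, adjusted p = 0.254), with 7 of the 11 exposed pups above the mean of the rest. Without MetS-Ct_70 it was 0.79 (adjusted p = 0.414). For MetS-MetS against Ct-Ct it was 1.36 ± 0.71 (adjusted p = 0.246), and for the nursing exposure averaged over both birth dams 0.19 ± 0.49 (adjusted p = 0.863). The difference did not pass in any of these comparisons.

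Cyp8b1, the sterol 12-alpha-hydroxylase, overlapped widely between groups. Its means were 209 ± 77.9 CPM (Ct-Ct), 172 ± 108 (MetS-Ct), 206 ± 63.2 (Ct-MetS) and 186 ± 124 (MetS-MetS). Single pups ran from 66.8 CPM in MetS-Ct_120 to 384 in MetS-MetS_39, and both extremes belong to groups exposed before birth. The log2 difference between MetS-MetS and Ct-Ct was −0.17 ± 0.41 (adjusted p = 0.839), and its sign turned without Ct-Ct_129, MetS-MetS_109 or MetS-MetS_110.

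The alternative pathway did not pass either. Cyp27a1, the mitochondrial sterol 27-hydroxylase, lay at 305 ± 29.9 CPM (Ct-Ct), 322 ± 41.2 (MetS-Ct), 270 ± 43.9 (Ct-MetS) and 326 ± 60.9 (MetS-MetS). Its largest difference was between MetS-MetS and Ct-MetS, at 0.27 ± 0.13 on the log2 scale (unadjusted p = 0.043, adjusted p = 0.303). Cyp7b1, the oxysterol 7-alpha-hydroxylase, was the least abundant of the tested members at 2.22 to 8.97 CPM, from 63 to 233 counts per library. It had means of 5.63 ± 1.91 CPM (Ct-Ct), 4.25 ± 1.26 (MetS-Ct), 4.74 ± 1.32 (Ct-MetS) and 6.43 ± 1.72 (MetS-MetS). Each single exposure thus had a lower mean than Ct-Ct and the double exposure a higher one, and the interaction was 0.85 ± 0.35 (unadjusted p = 0.0247, adjusted p = 0.892).

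Akr1d1, the steroid 5-beta-reductase that both pathways share, had means of 341 ± 99.0 CPM (Ct-Ct), 404 ± 90.7 (MetS-Ct), 322 ± 54.9 (Ct-MetS) and 387 ± 86.4 (MetS-MetS). Averaged over both foster dams, pups exposed before birth lay 0.26 ± 0.13 higher on the log2 scale (adjusted p = 0.338), and 9 of 11 were above the mean of the rest. Hsd3b7, the dehydrogenase of the step before it, was listed at 0 counts in all 23 libraries. In the GENCODE M21 annotation 62.0% of its 2769 exon bases also belong to Gm49388 on the same strand and 62.4% to 9430064I24Rik on the opposite strand, and 99.2% belong to 1 or both of these genes. The other 9 members share no exon bases with any gene there. Gm49388 had a mean of 1.74 and 9430064I24Rik of 64.0 counts per library. Of the genes on the lists described below, Oat and Per3 were also listed at 0 in every library and share no exon bases, and Apoc2 was listed at 0 with 79.5% shared. These 3 were noticed after their values were seen, and no level is read from a listed 0. The part of shared bases in the 0 of Hsd3b7 was not tested.

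Conjugation to glycine or taurine needs Slc27a5, the bile acyl-CoA synthetase, and Baat, the transferase. Slc27a5 was the most abundant member and the steadiest. Its Ct-Ct pups ran from 667 to 921 CPM, MetS-Ct pups from 778 to 1023, Ct-MetS pups from 569 to 787 and MetS-MetS pups from 763 to 908. All 6 Ct-MetS pups lay below the Ct-Ct mean, and all 11 pups exposed before birth lay above the mean of the rest. The rest includes the low Ct-MetS pups. Above the Ct-Ct mean alone lay 5 of 6 MetS-Ct and 4 of 5 MetS-MetS pups. Their log2 differences from Ct-Ct were 0.12 ± 0.097 (MetS-Ct, adjusted p = 0.869) and 0.068 ± 0.10 (MetS-MetS, adjusted p = 0.733). How many of all genes split in such ways was not computed. The log2 difference of Ct-MetS was −0.23 ± 0.097 from Ct-Ct (adjusted p = 0.289) and −0.35 ± 0.097 from MetS-Ct (unadjusted p = 0.00155, adjusted p = 0.185), and the second passed in DESeq2 (adjusted p = 0.0394). Exposure before birth, averaged over both foster dams, gave 0.21 ± 0.070 (adjusted p = 0.191). Baat lay at 248 ± 55.7 CPM (Ct-Ct), 254 ± 38.6 (MetS-Ct), 205 ± 40.8 (Ct-MetS) and 228 ± 29.9 (MetS-MetS), and its difference between Ct-MetS and MetS-Ct was −0.31 ± 0.15 (unadjusted p = 0.047, adjusted p = 0.387).

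**Figure D2:**
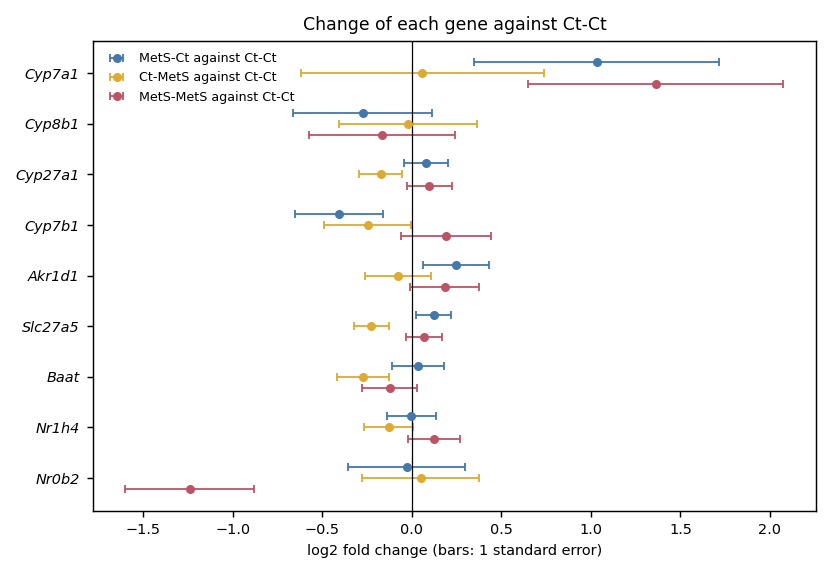
Log2 fold change of each tested member against Ct-Ct (x axis) in the 3 exposed groups, which share the Ct-Ct pups; points are edgeR estimates and bars are 1 standard error. Nr0b2 in MetS-MetS, at −1.24, is the point that passed; Cyp7a1 has the longest bars.

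The members' counts are given beside the share of all tested genes, and 9 members are too few for a share of their own. With an adjusted p under 0.05 in MetS-MetS against Ct-Ct 1 of 9 passed, where 5.78% of all genes did. In the other comparisons 0 of 9 passed. There the share of all genes was 0% in MetS-Ct and 0.954% in Ct-MetS against Ct-Ct, 0.415% in MetS-MetS against MetS-Ct, 0% in MetS-MetS against Ct-MetS and 0.076% in Ct-MetS against MetS-Ct. It was 4.22% with nursing exposure averaged over both birth dams, 0.00691% with exposure before birth averaged over both foster dams and 0% for the interaction. DESeq2 called 1 member, Nr0b2, in MetS-MetS against MetS-Ct (adjusted p = 0.0324) and 1, Slc27a5, in Ct-MetS against MetS-Ct. It called 0 in each of the other comparisons with 0 by edgeR, and limma-voom called 0 members in every comparison.

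An unadjusted p under 0.05 was reached in MetS-MetS against Ct-Ct by 1 member (24.4% of all genes), in Ct-MetS against Ct-Ct by 1, Slc27a5 (13.9%), and in MetS-Ct against Ct-Ct by 0 (5.9%). It was reached by Cyp7b1 and Nr0b2, 2 members, in MetS-MetS against MetS-Ct (14.1%) and for the interaction (5.44%). In MetS-MetS against Ct-MetS 3 members reached it, Cyp27a1, Nr0b2 and Slc27a5 (15.6%), and in Ct-MetS against MetS-Ct 3, Baat, Cyp27a1 and Slc27a5 (12.6%). Exposure before birth gave 3, Cyp7a1, Nr0b2 and Slc27a5 (16.3%), and nursing exposure gave 1, Nr0b2 (21.2%). The median log2 fold change of the 9 members in MetS-MetS against Ct-Ct was 0.097, beside −0.0038 over all genes.

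Corrected for exon length, Slc27a5 stood highest and Cyp7b1 lowest of the tested members. In mean CPM per kilobase of exon over the 23 pups, Slc27a5 had 332, Cyp27a1 140.2, Akr1d1 125, Baat 120.5, Nr1h4 104 and Cyp8b1 99.2. Cyp7a1 had 47.8, Nr0b2 18.3 and Cyp7b1 2.41. The first enzyme of the classic pathway was thus below the tested classic steps that follow it, Cyp8b1 and Akr1d1, in mean level per kilobase.

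Members also differed in how much pups of a group varied. For Cyp7a1 the SD of log2(CPM + 1) within groups was 1.20, larger than in 99.7% of tested genes, and its highest pup had 22.2 times the level of its lowest. For Cyp8b1 it was 0.69 (larger than in 97.6%) and for Nr0b2 0.58 (95.7%). These 3 are the gate, the branch point and the repressor of the pathway. The other enzymes varied less: the SD was 0.37 for Cyp7b1, 0.34 for Akr1d1, 0.26 for Baat, 0.21 for Cyp27a1 and 0.16 for Slc27a5, beside a median of 0.21 over all tested genes. Nr1h4 had 0.25. Slc27a5 thus varied less than most genes, with a smaller SD in 22.6% of them.

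**Figure D3:**
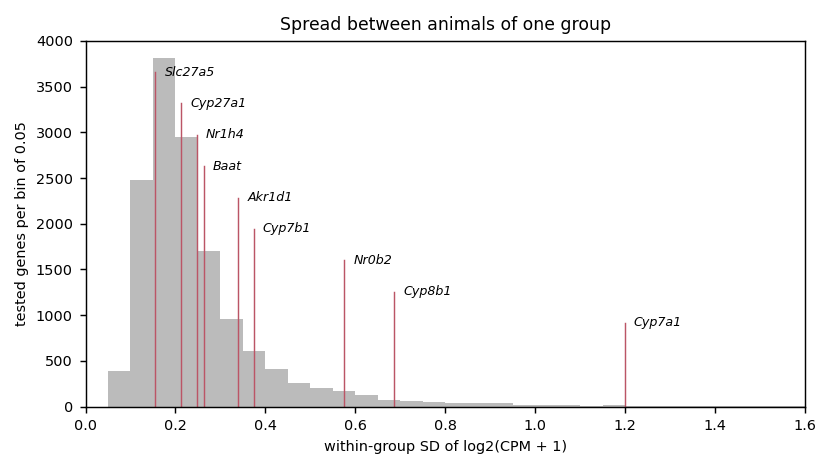
Number of tested genes (y axis) by the SD of log2(CPM + 1) within groups (x axis, bins of 0.05), with red lines at the 9 tested members. Cyp7a1 (1.20), Cyp8b1 (0.69) and Nr0b2 (0.58) lie in the right tail, and Slc27a5 (0.16) lies left of the median of 0.21.

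Some pairs of members varied together within groups. The share of such pairs among all tested genes was not computed, so their count cannot be called particular to these genes. Over the 23 pups, with group means removed, 5 of 36 pairs of members were related at a Benjamini-Hochberg adjusted p under 0.05 (100000 permutations within groups, two-sided). Cyp7a1 varied with Akr1d1 (Pearson r = 0.69, Spearman rho = 0.71, permutation p = 0.00128, adjusted p = 0.0199). Without the 2 pups farthest from the median Cyp7a1 level, MetS-Ct_70 and MetS-MetS_157, r was 0.65. Cyp8b1 ran opposite to Akr1d1 (r = −0.66, rho = −0.63, permutation p = 0.00166, adjusted p = 0.0199), with r = −0.65 without MetS-Ct_120 and MetS-MetS_39. MetS-MetS_39 shows the pattern: it had the lowest Akr1d1 (251.4 CPM) and Cyp7a1 (98.9 CPM) of its group and the highest Cyp8b1 of all pups (384 CPM). This pup also stood apart from its group in clock genes, which are given below.

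Baat was tied to 3 other members. It was related to Cyp27a1 (r = 0.65, rho = 0.65, permutation p = 0.00145, adjusted p = 0.0199, r = 0.53 without Ct-MetS_169 and MetS-MetS_39). Its relation to Cyp7a1 had r = 0.60 and rho = 0.58 (permutation p = 0.00478, adjusted p = 0.0396, r = 0.69 without MetS-Ct_70 and MetS-MetS_157). With Slc27a5, its partner in conjugation, r was 0.63 and rho 0.57 (permutation p = 0.0055, adjusted p = 0.0396, r = 0.45 without Ct-Ct_33 and Ct-MetS_169). By Spearman's rho 2 pairs passed, Cyp7a1 with Akr1d1 and Cyp27a1 with Baat, and leaving out 1 pup gave 2 to 7 pairs. The count was 2 without Ct-MetS_169, and 3 without Ct-Ct_4, Ct-Ct_10, Ct-Ct_33, Ct-Ct_129 or Ct-Ct_139, MetS-Ct_97, MetS-Ct_149 or Ct-MetS_63.

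The repressor and its target did not pass as a pair. Nr0b2 and Cyp7a1 had r = −0.46 and rho = −0.45 (permutation p = 0.032, adjusted p = 0.128), and r was −0.30 without MetS-Ct_70 and MetS-MetS_157. MetS-Ct_70, Ct-MetS_65 and MetS-MetS_157 had at once the lowest Nr0b2 and the highest Cyp7a1 of their groups. Ct-Ct_139 had the highest Nr0b2 (35.3 CPM) and the lowest Cyp7a1 (34.4 CPM) of its group. Other pups went the other way: MetS-Ct_97 had the highest Nr0b2 of its group (37.6 CPM) beside a high Cyp7a1 (289 CPM), and MetS-MetS_39 had little Nr0b2 (8.96 CPM) with the lowest Cyp7a1 of its group.

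**Figure D4:**
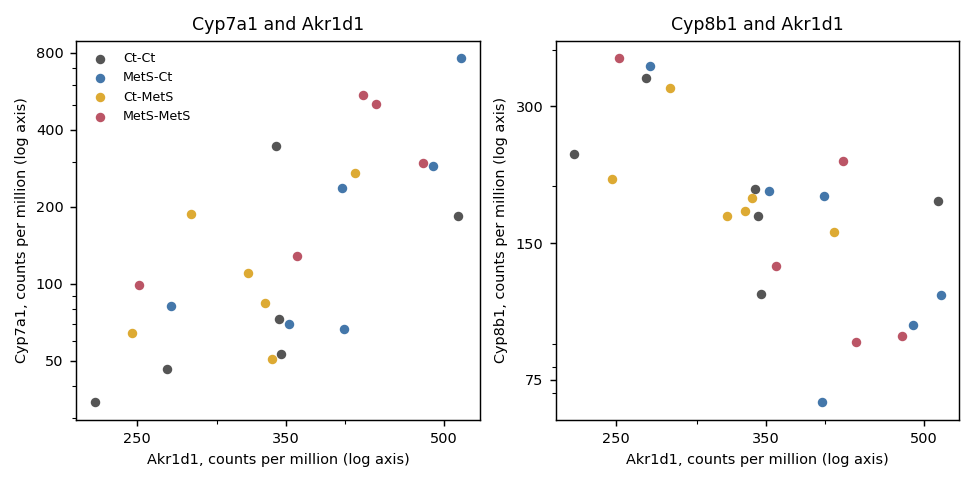
Cyp7a1 (left) and Cyp8b1 (right) against Akr1d1, in CPM on log axes; each point is 1 of the 23 pups, coloured by group. Pups with more Akr1d1 had more Cyp7a1 (r = 0.69 with group means removed) and less Cyp8b1 (r = −0.66).

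Cyp7a1 and other members follow the day-night cycle in adult liver, and the labels do not say at which time of day livers were taken. Dbp, a clock output factor, had 25.9 ± 12.1 CPM (Ct-Ct), 44.9 ± 35.1 (MetS-Ct), 45.2 ± 33.3 (Ct-MetS) and 142 ± 105 (MetS-MetS). Its MetS-MetS pups ranged from 2.78 CPM in MetS-MetS_39 to 267 in MetS-MetS_109. Nr1d1, the clock repressor REV-ERB-alpha, had 78.3 ± 31.1, 57.2 ± 57.6, 87.2 ± 58.4 and 78.1 ± 45.1 CPM in the same order of groups. It lay at 2.37 CPM in MetS-MetS_39, 1.48 in MetS-Ct_53 and 2.06 in Ct-MetS_50, and at 15.0 or higher in every other pup. Like MetS-MetS_39, MetS-Ct_53 had the lowest Akr1d1 (269.9 CPM) and the highest Cyp8b1 (368 CPM) of its group, whereas Ct-MetS_50 had neither. MetS-MetS_109, MetS-MetS_110 and MetS-MetS_157 had 1.85, 1.24 and 2.68 CPM of the clock gene Bmal1, and every other pup 9.06 or more. They had 35.0, 25.4 and 26.0 CPM of Ciart, another clock gene, and every other pup 14.3 or less. They also had the highest Cyp7a1 of their group (297, 507 and 549 CPM). The pup highest in Cyp7a1, MetS-Ct_70, had 9.06 CPM of Bmal1 and 14.3 of Ciart. Bmal1 and Ciart were named after their values were seen. Of 14 tested clock genes 0 passed in MetS-MetS against Ct-Ct by edgeR, beside 2 by DESeq2. An unadjusted p under 0.05 was reached by 5 of them (24.4% of all genes). Hlf lay at 0.72 ± 0.23 (adjusted p = 0.0645) and passed without Ct-Ct_10 or MetS-MetS_39. Dbp lay at 2.45 ± 0.86 (adjusted p = 0.0868) and passed without MetS-MetS_39 (adjusted p = 0.0402).

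Of 126 pairs of a member and a clock gene, examined after the values were seen, 0 passed with group means removed, and the lowest adjusted p was 0.106. An unadjusted permutation p under 0.05 was reached by 36 of them: 12 with Cyp8b1, 9 with Akr1d1, 7 with Cyp7a1, 5 with Cyp7b1 and 3 with Nr0b2. None was with Cyp27a1, Nr1h4, Baat or Slc27a5. The share of all tested genes that reach this with the same clock genes was not computed. Some clock genes, such as Bmal1 and Ciart, also varied with one another, so the pairs of 1 member are not separate results. Cyp7a1 and Ciart, a clock repressor, had r = 0.67 and rho = 0.74 (permutation p = 0.00212, adjusted p = 0.106), with r = 0.60 without MetS-Ct_70 and MetS-MetS_157. Cyp8b1 and Tef had r = −0.63 and rho = −0.59, and Akr1d1 and Tef r = 0.63 and rho = 0.69 (adjusted p = 0.106 for both permutation tests). Without removal of group means 31 pairs passed. The part of the clock in the differences between groups, and in the related pairs of members within groups, was not tested.

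The genes most like the 3 variable members were sought among the 11909 genes whose mean count was at least 50, by Pearson r of log2(CPM + 1) over the 23 pups with group means removed. For Cyp7a1 they were Ankrd28 (0.83), Nmd3 (0.79), Gtf2a2 (0.77), Armc8 (0.77) and Ndufs1 (0.77). Each of these r was above that of Cyp7a1 with Akr1d1 (0.69). For Cyp8b1 they included Creld1 (0.82), Ube2u (0.81), Gfod2 (0.76) and Bhmt (0.75), of which Bhmt is an enzyme of methionine metabolism. For Nr0b2 they were Mbd3 (0.78), Mrpl58 (0.74), Tdrkh (0.69), Spag7 (0.68) and Ppih (0.68).

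Around the 10 genes, RNA of other genes listed for bile acid synthesis differed in both directions with the double exposure. Of 14 tested genes of this list 2 rose and 1 fell in MetS-MetS against Ct-Ct by edgeR, where 5.78% of all tested genes passed. The median log2 fold change of the list was 0.30, beside −0.0038 over all genes. DESeq2 called 5 and limma-voom 3, and 9 had an unadjusted p under 0.05 (24.4% of all genes). Hsd17b4, the peroxisomal D-bifunctional protein that shortens the sterol side chain, rose 1.496-fold. It ran from 244 to 337 CPM in Ct-Ct (median 289), and the MetS-MetS pups had 394, 401, 411, 452 and 502 CPM, all above Ct-Ct. Its log2 fold change was 0.58 ± 0.12 (adjusted p = 0.0115), and the call was kept without any 1 of the 23 libraries. Hsd17b6 rose 2.04-fold (1.03 ± 0.25, adjusted p = 0.0212, lost without Ct-Ct_129, Ct-Ct_139 or MetS-MetS_157), from 99.8 ± 11.7 to 203 ± 52.5 CPM. In the single exposures Hsd17b4 ran from 294 to 425 CPM in MetS-Ct and from 271 to 411 in Ct-MetS. Hsd17b6 ran from 65.3 to 234 CPM in MetS-Ct and from 88.2 to 202 in Ct-MetS. Neither gene passed by edgeR in a single exposure against Ct-Ct.

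Scp2, whose longer product is the peroxisomal thiolase of the same side-chain pathway, fell by 0.47 ± 0.12 on the log2 scale with an adjusted p of 0.0285. Counts per gene do not separate this product from others of Scp2. The unexposed pups had 214 ± 27.1 CPM and the doubly exposed ones 154.05 ± 13.6. This call was lost without Ct-Ct_129, Ct-Ct_139, MetS-MetS_39, MetS-MetS_110 or MetS-MetS_157. In Ct-MetS it lay at 152 ± 19.7 CPM and also passed against Ct-Ct (−0.50 ± 0.12, adjusted p = 0.0397). That call was lost without any 1 of the Ct-Ct pups except Ct-Ct_33, and without any 1 of the Ct-MetS pups except Ct-MetS_65, and also without a filter on low counts (adjusted p = 0.0556) or with only the 2 groups in the fit (0.0626). With nursing exposure averaged over both birth dams, Hsd17b4 rose (0.30 ± 0.082, adjusted p = 0.0418) and Scp2 fell (−0.31 ± 0.085, adjusted p = 0.0397). Hsd17b4 kept this call in 8 of 23 fits without 1 library, those without Ct-Ct_10, Ct-Ct_33, MetS-Ct_53, MetS-Ct_120, Ct-MetS_50, Ct-MetS_63, MetS-MetS_109 or MetS-MetS_110, and lost it without a filter on low counts (adjusted p = 0.0744). Scp2 kept it in 10, those without Ct-Ct_4, Ct-Ct_33, MetS-Ct_97, MetS-Ct_120, MetS-Ct_149, Ct-MetS_24, Ct-MetS_50, Ct-MetS_63, Ct-MetS_65 or MetS-MetS_109. Cyp2c70, which makes the muricholic acids of mice, fell as well in this average (−0.52 ± 0.14, adjusted p = 0.0369). Its call was lost without Ct-Ct_129, Ct-Ct_130, MetS-Ct_85, MetS-Ct_97, Ct-MetS_24, Ct-MetS_145, MetS-MetS_109, MetS-MetS_110, MetS-MetS_154 or MetS-MetS_157. Cyp2c70 had 1261 ± 303 CPM in Ct-Ct and 817 ± 258 in Ct-MetS. It ran from 865 to 1527 CPM in MetS-Ct and from 709 to 983 in MetS-MetS. By edgeR it did not pass in Ct-MetS or MetS-MetS against Ct-Ct. Markers of other cells moved with these nursing contrasts. Kupffer markers rose in 4 of 7 in Ct-MetS against Ct-Ct, with Cd68 1.63-fold and Marco 2.18-fold higher, and in 3 of 7 with nursing exposure averaged over both birth dams. Their sum was 324 to 503 CPM in Ct-MetS and 297 to 340.02 in MetS-Ct. Of 6 erythroid markers 1 rose in Ct-MetS against Ct-Ct and 2 in the nursing average, and 4 rose in MetS-MetS against MetS-Ct, where 0 Kupffer markers passed by edgeR, DESeq2 or limma-voom and 3 had an unadjusted p under 0.05. The part of these cells in the nursing results of Scp2, Hsd17b4, Cyp2c70 and Slc51b was not tested.

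Among FXR targets outside synthesis 2 of 12 tested genes fell in MetS-MetS against Ct-Ct and 0 rose, whereas the median of the list was 0.12. Both encode exporters of bile acids. Of all tested genes 5.78% passed in this comparison. In the list DESeq2 called 3 and limma-voom 2, and 6 had an unadjusted p under 0.05 (24.4% of all genes). Slc51b, the beta subunit of the basolateral transporter, had 1.35 to 3.87 CPM in Ct-Ct (median 2.54), and the MetS-MetS pups had 0.578, 0.948, 1.21, 1.24 and 1.80. The level is low, at 16 to 33 counts in each MetS-MetS library. Its log2 fold change was −1.17 ± 0.28 (adjusted p = 0.0211, lost without Ct-Ct_4, Ct-Ct_139 or MetS-MetS_154). It also fell against MetS-Ct (−1.39 ± 0.28, adjusted p = 0.0367, lost without MetS-Ct_70, MetS-Ct_85, MetS-Ct_97, MetS-Ct_149, MetS-MetS_109, MetS-MetS_110 or MetS-MetS_154, and with limma-voom at 0.0522 or only the 2 groups in the fit at 0.0718) and with nursing exposure averaged over both birth dams (−0.90 ± 0.19, adjusted p = 0.0112, kept without any 1 library). Slc51a, the partner subunit, had at most 0.0722 CPM and was not tested.

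Abcb11, the canalicular bile salt pump, ran from 672 to 1028 CPM in Ct-Ct (median 1003), and the MetS-MetS pups had 590.04, 602, 635, 744 and 849.9. The pup lowest in Ct-Ct, Ct-Ct_10, stood apart from the other 5, and the ranges overlapped through it. The single exposures overlapped the MetS-MetS range, at 672 to 976 CPM in MetS-Ct and 716 to 895 in Ct-MetS. Abcb11 did not pass by edgeR in either of them against Ct-Ct. What follows is for MetS-MetS against Ct-Ct. The log2 fold change was −0.47 ± 0.13 (adjusted p = 0.0337), and the call was lost without Ct-Ct_4, Ct-Ct_129, Ct-Ct_130, Ct-Ct_139, MetS-MetS_39, MetS-MetS_110 or MetS-MetS_157. With only the 2 groups compared in the fit, neither gene passed (adjusted p = 0.0542 for Slc51b and 0.0629 for Abcb11). The other FXR targets lay on both sides of 0 and did not pass by edgeR. Osgin1 lay at −1.88 ± 0.58 (adjusted p = 0.0569), whereas Abcc2, the canalicular exporter of organic anions, lay at 0.32 ± 0.13 (adjusted p = 0.145), Abcc3 at 0.44 ± 0.21 (adjusted p = 0.195), Pltp at 0.31 ± 0.15 (adjusted p = 0.197), Abcb4 at 0.34 ± 0.18 and Kng1 at 0.22 ± 0.12. These 6 were named after their values were seen. Of the Kupffer markers that rose in the same comparison Cd68 rose by 0.65 ± 0.13 (adjusted p = 0.0107), and the part of other cells in the decreases of Nr0b2, Slc51b and Abcb11 was not tested.

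**Figure D5:**
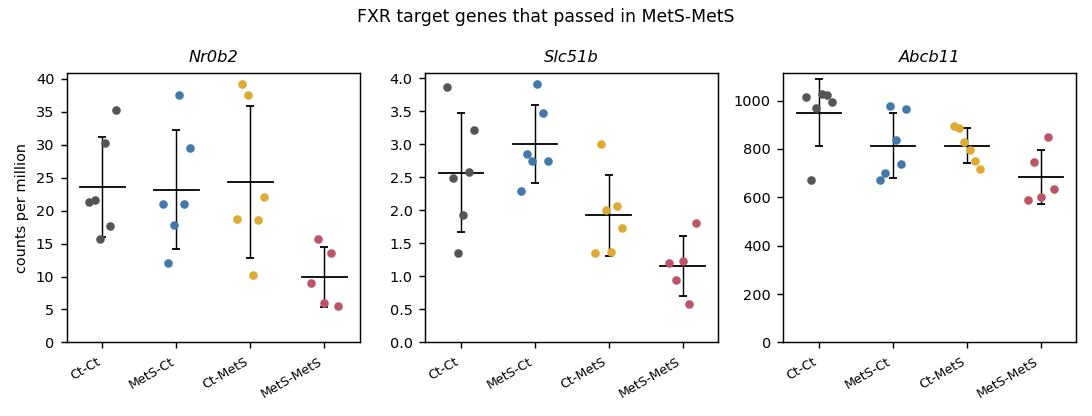
Nr0b2, Slc51b and Abcb11 in CPM by group; each point is 1 pup, lines are means and bars 1 SD. In MetS-MetS the means are 9.92, 1.16 and 684, against 23.6, 2.57 and 949 in Ct-Ct.

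Of the 27 tested regulators of bile acid synthesis 1 passed in MetS-MetS against Ct-Ct by edgeR, whereas DESeq2 called 6 and limma-voom 0. Of all tested genes 5.78% passed there by edgeR. An unadjusted p under 0.05 was reached by 11 of the 27 (24.4% of all genes). Nr1h3, which encodes the oxysterol receptor LXR-alpha, rose 1.16-fold, from 91.6 ± 4.04 to 106 ± 6.14 CPM (0.21 ± 0.059, adjusted p = 0.0399). Its call was lost without 9 of the 23 libraries, namely Ct-Ct_4, Ct-Ct_129, Ct-Ct_130, Ct-Ct_139, Ct-MetS_169, MetS-MetS_39, MetS-MetS_109, MetS-MetS_110 and MetS-MetS_157. It held in 2 of 6 other settings and was lost with limma-voom (adjusted p = 0.0512), without a filter on low counts (0.175), at a mean of at least 50 counts (0.0527) and with only the 2 groups in the fit (0.103). Fgfr4, the receptor of the intestinal hormone, lay at −0.37 ± 0.12 (adjusted p = 0.0657), and its partner Klb at −0.059 ± 0.17. The hormone's own gene, Fgf15, was listed at 0 throughout. Of 9 LXR targets 1 passed, where 5.78% of all tested genes did. It was the desaturase Scd1, which fell (−2.78 ± 0.73, adjusted p = 0.0307, lost without 8 of the 23 libraries: Ct-Ct_4, Ct-Ct_129, Ct-Ct_139 and each MetS-MetS pup in turn). Scd1 did not pass there with limma-voom (adjusted p = 0.0779) or without a filter on low counts (0.0620). With nursing exposure averaged over both birth dams Scd1 fell as well (−2.15 ± 0.49, adjusted p = 0.0170). That call was kept without any 1 library and in 4 of 5 other settings, but not with limma-voom (adjusted p = 0.107).

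Genes that supply cholesterol had a median log2 fold change of −0.71 in MetS-MetS against Ct-Ct. Of 16 tested, 0 passed in edgeR, DESeq2 or limma-voom, and 4 had an unadjusted p under 0.05 (24.4% of all genes). Insig1, a brake on sterol synthesis, lay at −1.48 ± 0.56 (adjusted p = 0.109) and Fdps, an enzyme of that synthesis, at −1.91 ± 0.85 (adjusted p = 0.174). Bile acid genes are zoned along the liver lobule, with Cyp7a1 near the central vein. Of 11 pericentral genes 0 passed by edgeR and 2 by DESeq2, and 2 had an unadjusted p under 0.05 (24.4% of all genes). Cyp2e1 lay at 0.81 ± 0.24 (adjusted p = 0.0504, passing without Ct-Ct_10, Ct-Ct_33, MetS-Ct_97, MetS-Ct_149 or Ct-MetS_24) and Cyp1a2 at 0.57 ± 0.19 (adjusted p = 0.0739, passing without MetS-MetS_39). Of 12 periportal genes 0 passed by edgeR and 1 by DESeq2, and 4 had an unadjusted p under 0.05 (24.4% of all genes). Ctsc lay at 0.56 ± 0.18 (adjusted p = 0.0596, passing without MetS-Ct_70 or Ct-MetS_145) and Cyp2f2 at 0.55 ± 0.22 (adjusted p = 0.120). With nursing exposure averaged over both birth dams 1 periportal gene passed, where 4.22% of all tested genes did. Hal, which breaks down histidine, fell by 0.53 ± 0.13 on the log2 scale, with an adjusted p of 0.0245. This call was lost without MetS-MetS_154.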

How the data were processed

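Polyadenylated RNA of 23 livers was sequenced, 1 directional library per pup. The submitters' processing notes name HTSeq, STAR, DESeq2 and FastQC. The sources used here give no versions, genome build, annotation or strand setting. The authors deposited 1 table of whole-number counts per gene. It is named as normalised, but no whole number from 1 to 100 was missing in any library and totals differed, so the values were taken as raw counts. Symbols matched 49326 of the 49585 identifiers.

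Genes averaging 10 or more counts were tested with edgeR 4.0.16 (R 4.3.3): quasi-likelihood, TMM, robust, 1 mean per group over all 23 libraries, Benjamini-Hochberg over 14466 genes, calls at an adjusted p under 0.05. Alternatives were DESeq2 1.42.0, limma-voom (limma 3.58.1), other filters and size factors, and each library left out. The fit was checked on simulated counts. Relations used log2(CPM + 1), and pairs with Hsd3b7 could not be computed. Exon lengths and overlaps came from GENCODE M21, promoters from RefSeq.

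The text names all 10 members, up to 6 genes that passed of each list (otherwise the 2 with the smallest p), Dbp, Nr1d1, and the 5 genes most like Cyp7a1, Cyp8b1 and Nr0b2, of which 1 is not reported here; others, such as Fgfr4, Klb, Fgf15 and the clock pairs, were chosen after their values were seen. Members and lists were chosen with earlier results of these data known.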

Additional observations from a re-analysis of the deposited data

Results flagged for a closer look

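Within each group every member's highest and lowest pup was set against the rest by Dixon's criterion, over 36 sets of CPM values. For normally distributed values chance alone marks about 1 set in 20, and here 2 of the 36 were marked. The values were not put on a log scale, so a skewed spread can itself be marked. In MetS-Ct, Cyp7a1 reached 764 CPM in MetS-Ct_70, whereas the other 5 pups lay at 66.8 to 289 CPM. In Ct-MetS, Cyp8b1 reached 330.02 CPM in Ct-MetS_145, whereas the other 5 lay at 158 to 208 CPM.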

How the results depend on the processing

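Depth limits Cyp7b1, with at least 63 counts per library, and Slc51b, with at least 16, more than Cyp7a1, with at least 899. Nr0b2 had at least 96 counts, in MetS-MetS_110, the smallest library. Library totals averaged 22298680 ± 4696465 (SD) in MetS-MetS and 27005778 ± 1222640 in Ct-Ct. The part of depth in the results of MetS-MetS was not tested. In MetS-MetS against Ct-Ct the count of members called was 0 with limma-voom and 0 without a filter on low counts, and 0 to 1 without single libraries. With the DESeq2 Wald test it was 1 in MetS-MetS against MetS-Ct and 1 in Ct-MetS against MetS-Ct. Related pairs of members numbered 2 by Spearman's rho and 2 to 7 without single libraries. Related pairs of a member and a clock gene numbered 31 without removal of group means and 0 to 1 without single libraries. For each of these counts the cause was not tested.

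Of 69 results for single genes, 6 changed sign without some single library, and 0 of these 6 had passed. Their log2 ranges were −0.616 to 0.035 for Cyp8b1 and −0.023 to 0.144 for Cyp27a1 in MetS-MetS against Ct-Ct. With nursing exposure averaged over both birth dams they were −0.181 to 0.228 for Cyp8b1, −0.052 to 0.049 for Nr1h4 and −0.119 to 0.0059 for Akr1d1, and with exposure before birth −0.041 to 0.106 for Cyp7b1. No paired analysis was possible because animal numbers are not shared between groups.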
